A study of Bos taurus with 8 samples.

Results

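The genes described here encode minor whey proteins and milk defence proteins of the cow: LTF, LPO, GLYCAM1, PIGR, SPP1, CLU, CD14, FOLR1 and TFF3. They were taken as a group by their role in milk, and every probe set that the array annotation assigns to exactly 1 of these symbols was taken as a member. A probe set is a group of short probes on the array that together report 1 transcript. The rule found 12 probe sets for 8 of the 9 genes among 24128 probe sets in all. GLYCAM1 had 3, LTF and CD14 had 2 each, and the other 5 measured genes had 1 each, while no probe set carried the symbol FOLR1 alone. Of the 12, 10 were among the 24016 probe sets tested, and 2 of the 3 for GLYCAM1 belong to the platform's control set. Lactating mammary gland was biopsied in 4 Holstein cows (Bos taurus), and each cow gave 1 full gland sample, 12 h after milk removal, and 1 empty gland sample, 0 h after it. The labels give no other treatment, and they do not state the cows' age, their stage of lactation, the order of the biopsies or the gland sampled. Each of the 8 RNA samples was hybridised to its own single-colour Affymetrix bovine array, and all values are log2 levels made by the authors with RMA, a method that corrects background, equalises the arrays' distributions and summarises the probes.

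Milk carries, besides caseins and the major whey proteins, a set of proteins that protect the gland and the calf. Some act on microbes directly by binding iron or by producing oxidants, some carry antibodies across the epithelium or sense bacterial lipopolysaccharide, and others coat surfaces, carry vitamins or hold misfolded proteins in solution. Secretory epithelial cells make most of them, and several are also made by leukocytes that enter the gland. When milk stays in the udder, the gland can pass from secretion towards involution, in which production of some defence proteins is known to increase. The series asks what milk accumulation does to expression, and here that question is put to the defence proteins.

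The tissue carried the transcripts of secretory epithelium in both states. The casein CSN2 averaged 13.83 ± 0.05 in the full samples and 13.84 ± 0.07 in the empty ones, and the epithelial transcription factor ELF5 averaged 13.42 ± 0.17 and 13.52 ± 0.08 (SD, n = 4 each), both in the upper part of the array range. The 9 markers of secretory luminal epithelium had 5 higher and 4 lower means in full gland and a median difference of 0.01. Among them the keratin KRT18 differed by 0.61, the keratin KRT8 by 0.21 and the adhesion molecule EPCAM by 0.23, against -0.04, -0.24 and -0.07 without cows 2 and 4. Values on the arrays spanned 4.98 to 14.43, and array signals have no read depth, so the number of arrays limits the precision. Over all probe sets, the full libraries of cow 2 (0.969) and cow 4 (0.9753) had the lowest median correlation with the remaining arrays, which was 0.9856 to 0.9868 for the other 6 libraries. In the full library of cow 2 the level of the 5′ probe set of the GAPDH control minus that of its 3′ probe set was -3.31, while the other 7 libraries lay between -2.13 and -1.53. That library also had the lowest 5′ minus 3′ difference for the EF1A, cyclophilin, eIF-4E and GST controls, but 0.07 for actin. In the full library of cow 4 the same difference for the actin control was -1.36, and it lay between -0.07 and 0.07 in the other 7. For the rest of these controls the full library of cow 4 lay within the range of the other libraries, with -1.71 for GAPDH. Full minus empty differences of the members and of the named list genes are therefore given below over all cows and also without cows 2 and 4, and the part of RNA quality in them was not tested. These cows were singled out partly by the same array values, so leaving them out can by itself narrow many differences. The values without them describe how far a difference rests on those cows, not why.

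Over the 4 cows, LPO, CD14, TFF3 and PIGR had lower mean levels in full than in empty gland, CLU had a higher mean level, and LTF, GLYCAM1 and SPP1 differed by 0.04 log2 or less in their brightest probe sets. Tested with limma, blocking on cow, none of the 10 member probe sets in the test reached an adjusted p under 0.05. Over all 24016 probe sets 0% passed (0 probe sets, with a smallest adjusted p of 0.993), so the members share that outcome with the whole array. At an unadjusted p under 0.05 limma called 1 member probe set, that of LPO, where the background was 2.5%. The differences of CLU, LPO, TFF3, PIGR and CD14 were widest in cows 2 and 4, the cows whose full libraries were the least like the others. For the brighter CD14 probe set, however, cow 4 (-0.24) was close to cow 1 (-0.20), and cow 2 stood apart (-0.97). Without cows 2 and 4 the differences were -0.15 for CLU, -0.14 for LPO, -0.07 for TFF3 and -0.004 for PIGR. They were -0.09 and -0.02 for the brighter and the dimmer CD14 probe set. The value of TFF3 there averages opposite differences, 0.20 in cow 1 and -0.33 in cow 3. The median difference over the 8 genes was -0.11, with 6 genes lower and 2 higher, beside a median of 0 over all 9155 genes with 4707 lower. By cow, the median over the 8 genes was -0.03, -0.26, -0.07 and -0.12 in cows 1 to 4. In bulk biopsies fewer cells of a type and less RNA per cell cannot be told apart.

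**Figure D1:**
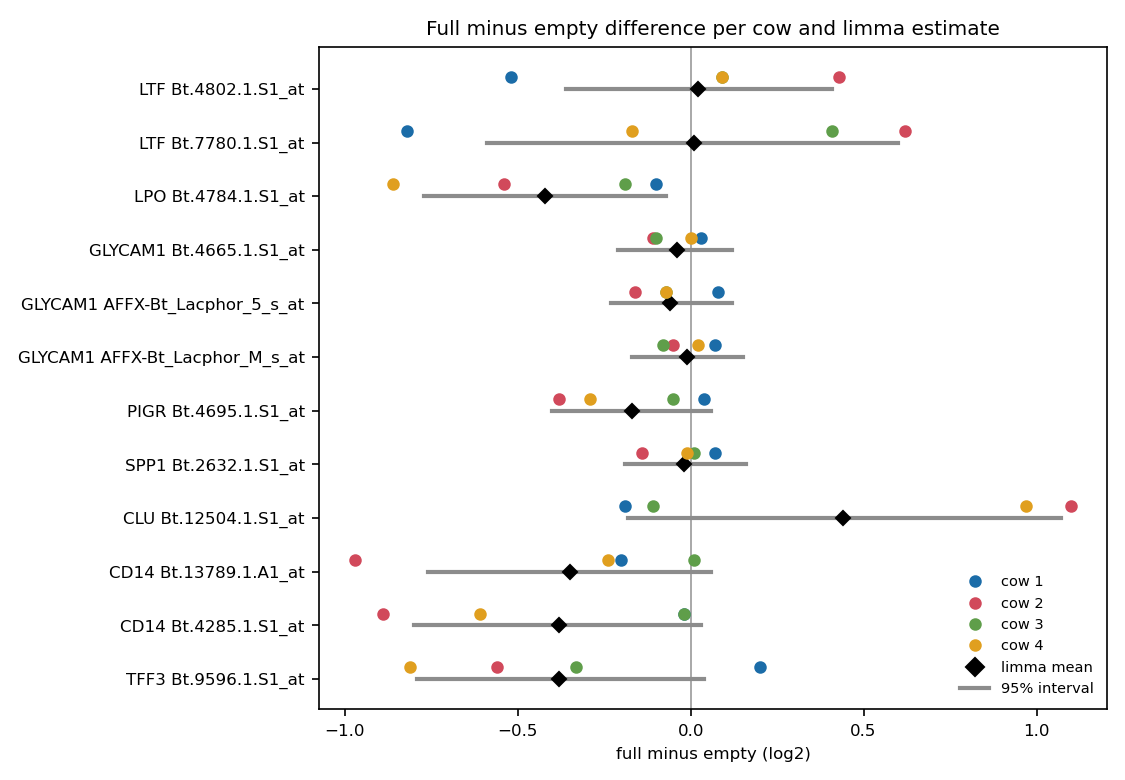
Full minus empty difference in log2 (x axis) for each of the 12 member probe sets (rows). Coloured points are cows 1 to 4, the diamond is limma's mean difference and the grey bar its 95% interval. The points of cows 2 and 4 lie apart from those of cows 1 and 3 for CLU (1.10 and 0.97, against -0.19 and -0.11), and the interval of LPO alone does not reach 0 (-0.77 to -0.07).

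Among the proteins that act on microbes, LTF encodes lactoferrin, which binds iron and so withholds it from bacteria. Its brighter probe set, annotated to a RefSeq mRNA, read 12.68, 13.43, 13.28 and 13.85 in the full glands of cows 1 to 4, against 13.21, 12.99, 13.18 and 13.76 in their empty glands. The lowest and the highest of the 8 values were both full glands, of cow 1 and cow 4, so the groups overlapped widely, and these values too lie near the top of the array range, where a change can be compressed. The mean difference was 0.02 ± 0.16 (the moderated SE from limma over 4 cows, as in all later differences), with a 95% interval of -0.36 to 0.41 and a limma adjusted p of 0.996. Full gland was higher in 3 cows and lower by 0.52 in cow 1.

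The dimmer LTF probe set, annotated to an expressed sequence tag, read 5.82, 7.64, 7.60 and 9.20 in full gland, against 6.65, 7.03, 7.19 and 9.37 in empty gland. Both glands of cow 4 lay above all the others and both of cow 1 below them, a spread of 3.54 log2. Between states it differed on average by 0.01 ± 0.24, with an interval of -0.59 to 0.60 and a limma adjusted p of 0.999. Both LTF probe sets were lower in full gland in cow 1 and higher in cows 2 and 3, and they went opposite ways in cow 4 (0.09 and -0.17). Without cow 2 the brighter probe set differed by -0.11, and without cows 2 and 4 both differed by -0.21. Lactoferrin is also stored in neutrophil granules. The 5 measured of 8 neutrophil markers had summed linear levels of 403 to 1107 in full and 493 to 703 in empty gland. The median of their differences was -0.03. The highest sum, in the full gland of cow 4, came mainly from 1 marker, S100A12, which read 9.74 there. The rest read 5.35 to 6.68 on all arrays, in the lower part of the array range. The RMA scale has no 0 and no marker in this list passed. The part of neutrophils in the LTF values was not tested.

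LPO encodes lactoperoxidase, which uses hydrogen peroxide to turn thiocyanate into an antibacterial oxidant. It read 12.01, 11.47, 12.49 and 11.43 in full gland, against 12.10, 12.01, 12.68 and 12.29 in empty gland. Each cow's full gland was below its own empty gland, by 0.10, 0.54, 0.19 and 0.86 in cows 1 to 4, although the groups as a whole overlapped because cow 3 was high in both states. The mean difference was -0.42 ± 0.14 (n = 4 cows), 0.746-fold, with a 95% interval of -0.77 to -0.07. The unadjusted limma p was 0.0252 and the adjusted p 0.993, so LPO did not pass. Without cow 4 the difference was -0.27. An exact sign-flip permutation test over the 4 cows gave a two-sided p of 0.125, the smallest that 4 pairs allow. A direction shared downwards by all 4 cows was seen for 5.97% of all probe sets, and among the 10 member probe sets for LPO and the dimmer CD14 probe set. That CD14 probe set differed by only -0.02 in each of cows 1 and 3. No member was higher in full gland in all 4 cows, where the background was 4.22%. Full and empty values did not overlap at all for 0.812% of all probe sets and for 0 of the 10 member probe sets.

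**Figure D2:**
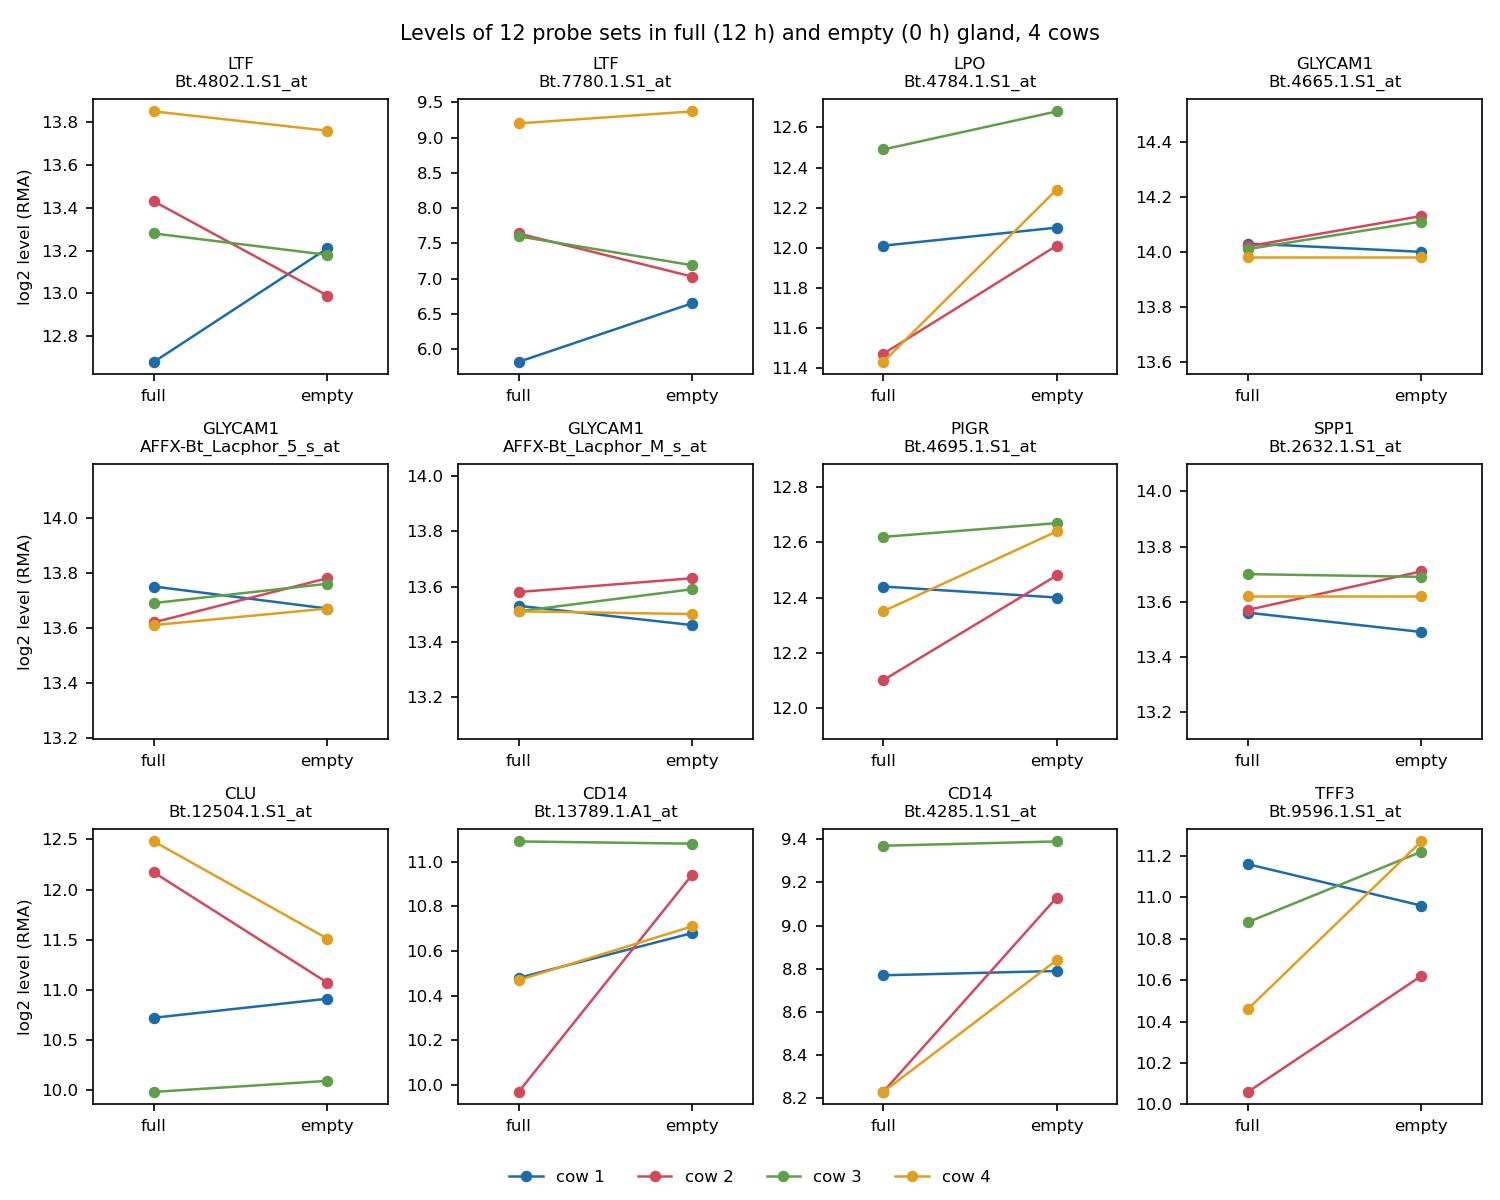
Log2 RMA level (y axis) of each of the 12 member probe sets in full and empty gland (x axis), with a line for each cow. The y axes span at least 1 log2 unit and differ between panels. All 4 lines of LPO are lower at full, GLYCAM1 and SPP1 stay within 0.22 log2 over the 8 arrays, and the lines of cow 4 and cow 1 are the highest and lowest for the dimmer LTF probe set.

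Among the surface-coating whey proteins, GLYCAM1 encodes lactophorin, a mucin-like glycoprotein also known as proteose peptone component 3. Its probe set outside the platform controls read 14.03, 14.02, 14.01 and 13.98 in full gland, against 14.00, 14.13, 14.11 and 13.98 in empty gland. The 8 values spanned 0.15 log2 and lay close to the highest values of the arrays, 14.32 to 14.43, where a change can be compressed. The mean difference was -0.04 ± 0.07, with an interval of -0.21 to 0.12 and a limma adjusted p of 0.993, and it was also -0.04 without cows 2 and 4. The control probe set against its 5′ part read 13.75, 13.62, 13.69 and 13.61 in full gland, against 13.67, 13.78, 13.76 and 13.67 in empty gland, with a mean difference of -0.06 ± 0.07. The control probe set against its middle differed by -0.01 ± 0.07 and read between 13.46 and 13.63 on all arrays. These 2 were tested in a fit that included the platform controls, chosen after seeing the data, and had adjusted p values of 0.993 and 0.996. The 5′ level minus the middle level was 0.22, 0.05, 0.18 and 0.10 in full gland, against 0.22, 0.16, 0.17 and 0.18 in empty gland. The full libraries of cows 2 and 4 were thus the 2 lowest on this measure of 5′ signal.

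TFF3 encodes trefoil factor 3, a small peptide that mucosal epithelia secrete with mucins and that aids their repair. It read 11.16, 10.06, 10.88 and 10.46 in full gland, against 10.96, 10.62, 11.22 and 11.27 in empty gland. Full gland was lower by 0.56, 0.33 and 0.81 in cows 2, 3 and 4 and higher by 0.20 in cow 1, and the groups overlapped. On average TFF3 differed by -0.38 ± 0.17, 0.771-fold, with an interval of -0.79 to 0.04 and a limma adjusted p of 0.993. With single cows left out it ranged from -0.57 (without cow 1) to -0.23 (without cow 4).

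Among the proteins of antibody transport and sensing, PIGR encodes the receptor that carries polymeric immunoglobulin A through epithelial cells and leaves its outer part, secretory component, in milk. It read 12.44, 12.10, 12.62 and 12.35 in full gland, against 12.40, 12.48, 12.67 and 12.64 in empty gland. The 2 lowest values were the full glands of cows 2 and 4, and cows 1 and 3 differed by 0.05 or less. On average PIGR differed by -0.17 ± 0.09, 0.889-fold, with an interval of -0.40 to 0.06 and a limma adjusted p of 0.993, and without cow 2 by -0.10. JCHAIN, the joining chain that PIGR recognises in its cargo, averaged 11.86 ± 0.27 in full and 11.86 ± 0.17 in empty samples (SD, n = 4 each), with a difference of -0.07 without cows 2 and 4. The 5 measured of 9 B and plasma cell markers, JCHAIN among them, had summed linear levels of 3122 to 4660 in full and 3628 to 4801 in empty gland. Those sums mainly restate JCHAIN, which read 11.45 to 12.08, while the rest read 5.74 to 8.06.

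CD14 encodes a co-receptor that presents bacterial lipopolysaccharide to Toll-like receptor 4 and that is also shed into milk. The brighter probe set, annotated to an expressed sequence tag, read 10.48, 9.97, 11.09 and 10.47 in full gland, against 10.68, 10.94, 11.08 and 10.71 in empty gland. The dimmer one, annotated to a RefSeq mRNA, read 8.77, 8.23, 9.37 and 8.23 in full gland, against 8.79, 9.13, 9.39 and 8.84 in empty gland. In both, the full glands of cows 2 and 4 were the 2 lowest of the 8 arrays and cow 3 was high in both states. The mean differences were -0.35 ± 0.17, with an interval of -0.76 to 0.06, and -0.38 ± 0.17, with an interval of -0.80 to 0.03, and both had a limma adjusted p of 0.993. Cow 2 had the widest difference (-0.97 and -0.89), and without it the mean differences were -0.14 and -0.21. CD14 is also a monocyte marker. The 8 measured of 10 monocyte and macrophage markers, a list without CD14, had a median difference of 0.08, and of -0.23 without cows 2 and 4. By cow that median was -0.38, 0.05, -0.01 and 0.85 in cows 1 to 4. The brighter CD14 probe set differed by -0.20, -0.97, 0.01 and -0.24 in the same cows. Summed linear levels of the 8 markers were 1862 to 4187 in full and 2223 to 3516 in empty gland. The defining markers CSF1R and CD68 averaged 8.88 ± 0.64 and 7.56 ± 0.64 in full samples and 8.70 ± 0.25 and 7.21 ± 0.45 in empty samples (SD, n = 4 each), and the part of these cells in the CD14 values was not tested.

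SPP1 encodes osteopontin, a phosphorylated glycoprotein of milk that binds integrins. It read 13.56, 13.57, 13.70 and 13.62 in full gland, against 13.49, 13.71, 13.69 and 13.62 in empty gland. Values of both states interleaved within 0.22 log2, near the top of the array range. On average SPP1 differed by -0.02 ± 0.07, with an interval of -0.19 to 0.16 and a limma adjusted p of 0.993. Without cow 2 its sign turned, to 0.02, and without cows 2 and 4 it was 0.04.

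CLU encodes clusterin, a secreted chaperone that binds misfolded proteins and that is known in rodents to increase in the involuting mammary gland. It read 10.72, 12.17, 9.98 and 12.48 in full gland, against 10.91, 11.07, 10.09 and 11.51 in empty gland. The full glands of cows 4 and 2 were the 2 highest of the 8 arrays, both glands of cow 3 were the 2 lowest, and the groups overlapped. Full gland was higher by 1.10 in cow 2 and by 0.97 in cow 4, but lower by 0.19 in cow 1 and by 0.11 in cow 3. The mean difference was 0.44 ± 0.25, 1.36-fold, with an interval of -0.18 to 1.07 and a limma adjusted p of 0.993. It was 0.22 without cow 2 and 0.27 without cow 4, and with cows 1 and 3 alone it was -0.15, so the sign of the mean rests on cows 2 and 4. In those 2 cows fibroblast markers had median differences of 0.17 and 0.61 and myoepithelial markers 0.42 and 0.68, while in cows 1 and 3 they were -0.28 and -0.09 for fibroblast and -0.01 and -0.15 for myoepithelial markers. T and natural killer cell markers likewise had median differences of 0.36 and 0.41 in cows 2 and 4, and of -0.17 and -0.06 in cows 1 and 3. Of these 8 markers, 6 had a higher mean in full gland and 2 a lower one. Their summed linear levels were 2893 to 4736 in full and 4385 to 5285 in empty gland. That sum follows mainly 1 marker, ZAP70, which read 10.77 to 12.03, while the rest read 5.49 to 8.14. Summed linear levels of the 7 fibroblast markers, all measured, were 14551 to 33124 in full and 15688 to 23467 in empty gland. Those of the 7 measured of 8 myoepithelial markers were 10651 to 21097 and 11240 to 13965. Not all lists split the cows so. In cows 1 to 4 luminal medians were 0.05, 0.01, 0.01 and 0, and endothelial ones -0.12, -0.42, 0.15 and 0.12. Monocyte and macrophage medians were -0.38, 0.05, -0.01 and 0.85, and B and plasma cell ones -0.13, 0, -0.04 and 0.30. Neutrophil medians were 0.01, -0.13, 0 and -0.03, and skeletal muscle ones -0.06, -0.09, 0.09 and 0.23. Adipocyte medians were -0.15, 0.13, -0.09 and -0.05. The differences of LPO, PIGR, TFF3 and CD14 were widest in cows 2 and 4, where fibroblast, myoepithelial and T and natural killer cell medians were higher. For the brighter CD14 probe set cow 4 was close to cow 1. The part of these cells in the values of CLU and of those 4 genes was not tested.

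The array that was high for CLU was low for several other members. The full glands of cows 2 and 4, the 2 highest for CLU, were the 2 lowest for LPO, for PIGR, for TFF3 and for both CD14 probe sets. Both glands of cow 3, the 2 lowest for CLU, were the 2 highest for LPO and for both CD14 probe sets. The order of the arrays was different for LTF, whose brighter probe set was highest in both glands of cow 4 and lowest in the full gland of cow 1.

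FOLR1, which encodes the folate-binding protein of milk, had no probe set of its own here. Of its relatives, FOLR2 was represented by 1 probe set and FOLR3 by 3. The brightest FOLR3 probe set read 11.93, 10.47, 12.49 and 10.89 in full gland, against 11.74, 11.84, 12.26 and 11.67 in empty gland. Full gland was lower by 1.36 in cow 2 and 0.78 in cow 4 and higher by 0.19 and 0.22 in cows 1 and 3, and the mean difference was -0.43 ± 0.29 with a limma adjusted p of 0.993. Without cows 2 and 4 it turned to 0.21. The other 2 FOLR3 probe sets differed by -0.47 and -0.40 with the same directions by cow. FOLR2 differed by 0.17 ± 0.18 (adjusted p = 0.993), and by -0.02 without cows 2 and 4. Folate receptor genes are closely related in sequence, and which of their transcripts these probes bind was not tested.

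Each of the 10 tested member probe sets had a larger share of its spread between cows, which has 3 degrees of freedom, than between states, which has 1. Of the sum of squares over the 8 arrays, the cow accounted for a median of 59.7% over the 10 tested member probe sets and the state for 18.8%, beside 56.2% and 5.87% over all 24016 probe sets. The cow share was 93.9% for the dimmer LTF probe set, 80.7% for CLU and 76.7% for the brighter LTF probe set, and the state share was at most 25.9%, for LPO. The median range over the 8 arrays was 1.16 log2 for the member probe sets and 0.48 over all probe sets.

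**Figure D3:**
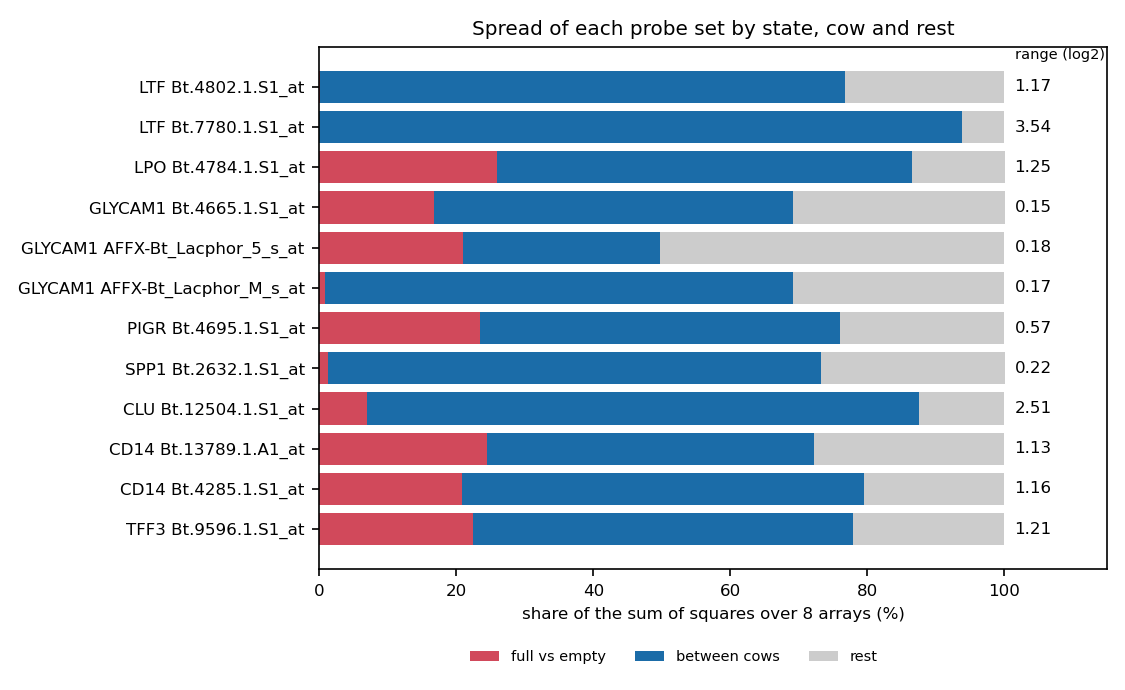
Share of the sum of squares over 8 arrays (x axis, in %) that lay between full and empty gland, between cows and in the rest, for each member probe set (rows), with its range over the arrays in log2 at the right. The dimmer LTF probe set has 93.9% between cows over a range of 3.54, while GLYCAM1 and SPP1 divide ranges of 0.15 to 0.22.

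When cows were compared with limma's F-test, none of the 10 member probe sets passed an adjusted p of 0.05, where 0.437% of all probe sets did (105 of 24016). At an unadjusted p under 0.05 there were 4 member probe sets, of LTF (both), LPO and CLU, beside 14.8% of all. The dimmer LTF probe set averaged 6.24, 7.33, 7.40 and 9.28 in cows 1 to 4, 8.26-fold between cow 4 and cow 1, with an adjusted p of 0.0881 in this F-test. The cow 1 values, 5.82 and 6.65, lay in the lower part of the array range, so the fold is uncertain. The dimmer LTF probe set passed after median centring of the arrays (adjusted p = 0.031), among the brighter probe sets of the array only (0.0425) and with an intensity trend and robust prior (0.0254), all in limma. The brighter LTF probe set ran in the same order of cows, at 12.95, 13.21, 13.23 and 13.81, 1.81-fold between the ends (F-test adjusted p = 0.32).

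CLU averaged 10.82, 11.62, 10.03 and 12.00 in cows 1 to 4, 3.90-fold between cow 4 and cow 3 (limma F-test adjusted p = 0.197). LPO averaged 12.05, 11.74, 12.59 and 11.86, with cow 3 highest (adjusted p = 0.279 in the limma F-test). In the remaining members the F-test adjusted p was 0.339 or above. With cows 1 and 3 alone, 5 of the 10 member probe sets differed between the 2 cows in limma, those of CLU (adjusted p = 0.00515), CD14 (0.0117 and 0.026), LPO (0.0184) and the dimmer LTF probe set (0.0381), beside 7.58% of all probe sets. That comparison has 1 pair of glands for each of 2 animals and describes those animals. Both glands of cow 3 were higher than both of cow 1 for LPO, for LTF in the dimmer probe set and for CD14, and lower for CLU.

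The patterns most like those of the 3 members with the widest range in their brightest probe set were sought over all genes and all 8 arrays, which share 4 cows and the same normalization. CLU was followed most closely by MTSS1, an actin-binding protein (Pearson r = 0.995), NOL3, a repressor of apoptosis (r = 0.991), and NFE2L2, a transcription factor of the oxidative stress response (r = 0.989). Each of them ordered the 8 arrays exactly as CLU did, over ranges of 1.39, 1.66 and 0.83 log2 against 2.51 for CLU. LPO was followed by SLC31A1, a copper importer (r = 0.990), KCNK5, a potassium channel (r = 0.983), and NDUFA5, a subunit of respiratory complex I (r = 0.979). TFF3 was followed by UBL7, a ubiquitin-like protein (r = 0.993), LOC788425 (r = 0.992) and AFTPH, a protein of vesicle traffic (r = 0.979). The genes were picked as the highest of 9155, so these coefficients describe likeness and carry no test. None of the 9 passed limma between states, with mean differences of 0.13 to 0.23 for the genes like CLU and -0.52 to -0.13 for the rest.

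**Figure D4:**
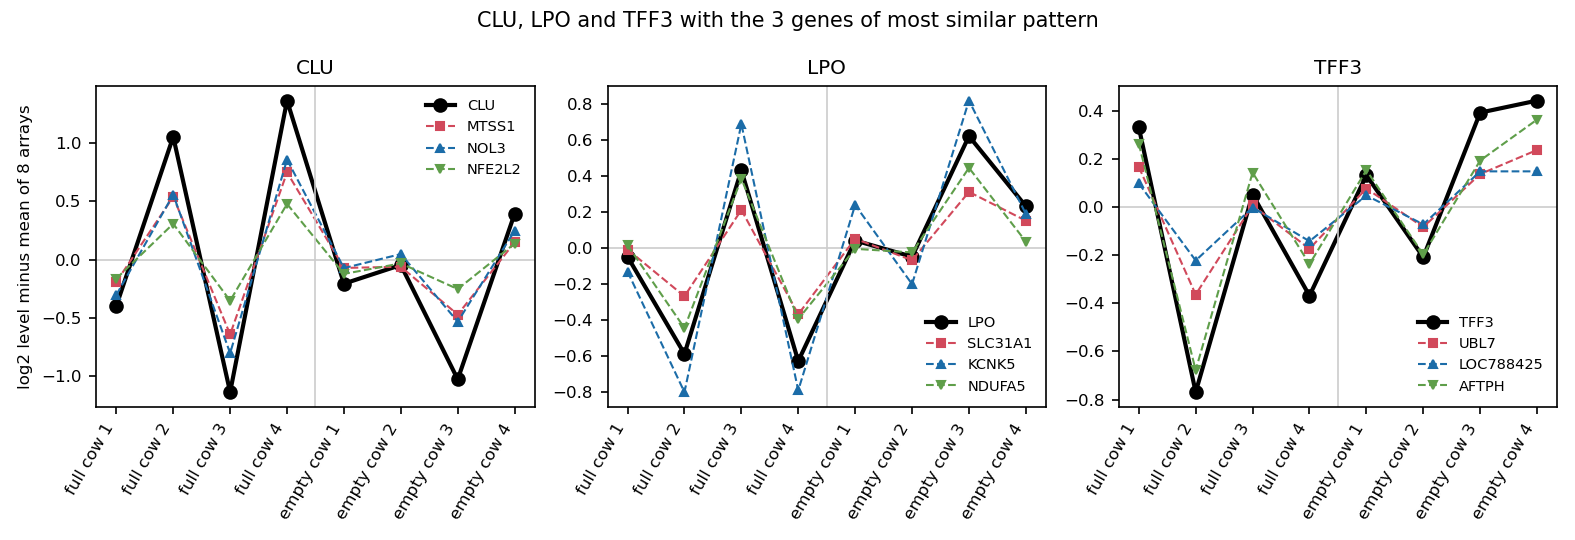
Log2 level minus its mean over the 8 arrays (y axis) for CLU, LPO and TFF3 (black) and the 3 genes with the highest Pearson correlation to each (coloured, dashed), array by array (x axis, full glands left, empty glands right; the lines join arrays that have no order). CLU peaks in the full glands of cows 2 and 4, where LPO and TFF3 have their lowest values.

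Genes that act with the members were taken as 7 lists. Of the 105 genes listed, 72 were measured, with 37 higher and 35 lower in full gland and none passing limma over all probe sets, higher or lower (adjusted p of 0.993 or above). Their median difference was 0.01, beside 0 over all genes.

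In the lipopolysaccharide list, which goes with CD14, 11 of 14 genes were measured, 5 higher and 6 lower, with a median of -0.06. MYD88, the adaptor of Toll-like receptors, averaged 10.29 ± 0.19 in full and 10.54 ± 0.18 in empty samples, a difference of -0.24 ± 0.10. TLR2, a receptor of bacterial lipoproteins, differed by -0.21 ± 0.11. Without cows 2 and 4 these became -0.11 and -0.10, and the list's median 0.01. LBP, which carries lipopolysaccharide to CD14, differed by -0.06 ± 0.07 between states (-0.13 without cows 2 and 4), but it was the 1 gene of the 72 that passed the limma F-test between cows (adjusted p = 0.0301). It averaged 9.31, 8.88, 9.68 and 10.29 in cows 1 to 4 and is named after its values were seen.

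In the immunoglobulin transport list, which goes with PIGR, 9 of 13 genes were measured, 3 higher and 6 lower, with a median of -0.04. FCGRT, the neonatal Fc receptor that carries immunoglobulin G, differed by 0.24 ± 0.19, and B2M, its light chain, by 0.10 ± 0.08, and without cows 2 and 4 both signs turned, to -0.18 and -0.02. In the osteopontin receptor list all 8 measured of 10 genes had a mean that was higher in full gland, with a median of 0.15. By cow that median was -0.03, 0.08, 0.07 and 0.64 in cows 1 to 4, and it was 0.03 without cow 4 and -0.01 without cows 2 and 4. ITGB6, an epithelial integrin chain, differed by 0.54 ± 0.18, with 0.12, 0.87, 0.13 and 1.02 in cows 1 to 4 and 0.13 without cows 2 and 4. ITGAV, the chain that pairs with it, differed by 0.15 ± 0.10, and by 0.34 without those cows. In the folate list 12 of 14 genes were measured, 6 higher and 6 lower, and beside FOLR3 the named gene was SHMT2, the mitochondrial serine hydroxymethyltransferase, at -0.18 ± 0.09 (-0.23 without cows 2 and 4).

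In the list of other antimicrobial and acute phase milk proteins, 21 of 33 genes were measured, 10 higher and 11 lower, with a median of 0. HP, the haemoglobin-binding haptoglobin, read 5.61, 7.25, 5.72 and 7.90 in full gland, against 5.76, 6.11, 5.89 and 6.61 in empty gland. SAA3, the serum amyloid A that the mammary gland makes, read 9.18, 11.25, 8.39 and 13.08 in full gland, against 10.06, 9.87, 8.37 and 11.75 in empty gland. Both had their 2 highest differences in cows 2 and 4, as CLU did, and averaged 0.53 ± 0.29 and 0.46 ± 0.40, while without those cows they were at -0.16 and -0.43. The list's median without those cows was -0.10. In the trefoil and mucin list 5 of 11 genes were measured, 1 higher and 4 lower, with a median of -0.08. LYPD3, a surface protein of the Ly6 family, differed by 0.74 ± 0.23, with 0.27, 1.13, 0.17 and 1.40 in cows 1 to 4 and 0.22 without cows 2 and 4. GP2, a glycoprotein that binds bacterial fimbriae, differed by -0.31 ± 0.12, and by -0.08 without those cows. In the list of clusterin and lactoferrin receptors and other extracellular chaperones 6 of 10 genes were measured, 4 higher and 2 lower, with a median of 0.02. VLDLR, a lipoprotein receptor that binds clusterin, differed by -0.24 ± 0.09 and was lower in all 4 cows, with only -0.01 in cow 1. That shared direction was seen for 5.97% of all probe sets. LRPAP1, a chaperone of such receptors, differed by -0.13 ± 0.08. Without cows 2 and 4 the differences of VLDLR and LRPAP1 were -0.23 and -0.17. VLDLR had 3 other probe sets, all dimmer, which differed by -0.09, 0 and 0.08.

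**Figure D5:**
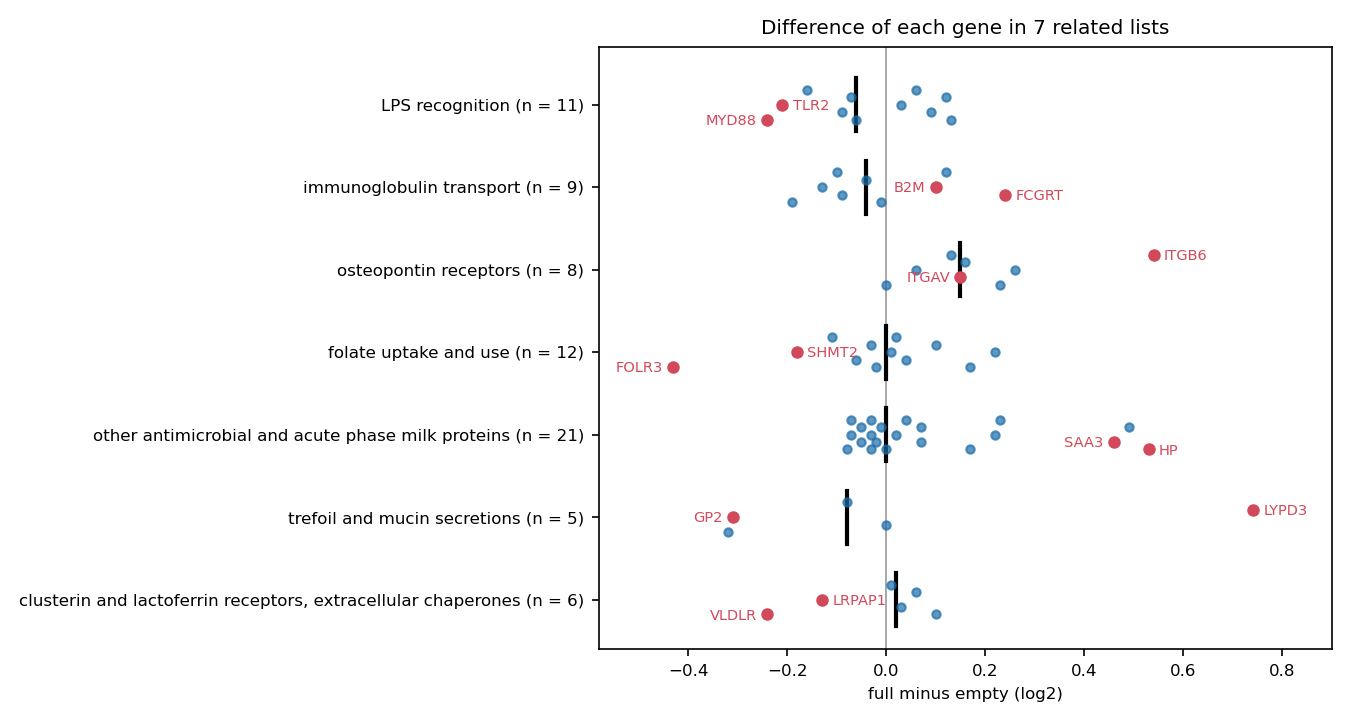
Full minus empty difference in log2 (x axis) of each measured gene in the 7 lists (rows), with the list's median as a black bar and the 2 genes of smallest unadjusted p in red. The 8 osteopontin receptor genes lie at or above 0, with a median of 0.15 that is 0.03 without cow 4 and -0.01 without cows 2 and 4, and the medians of the other lists lie between -0.08 and 0.02.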

How the data were processed

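Total RNA was isolated with Trizol and RNeasy columns, and 2 ug was primed with oligo(dT) and turned into biotinylated cRNA, per the labels' protocols. The deposited table gives 1 log2 level for each probe set on each array. The authors used RMA, per the submitters' processing notes, of unstated version. That the scale is log2 follows from the range of the values. Quantile equalisation within RMA hides a shift shared by most genes. Tests covered the 24128 probe sets of the table except 112 that are platform controls. Symbols came from the platform annotation, and all 12 member probe sets matched their symbol through entrez numbers in RefSeq (ARS-UCD2.0). A gene outside the members was represented by its brightest probe set.

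Differences were fitted with limma 3.58.1 under R 4.3.3, using lmFit and eBayes (two-sided). State and cow were fixed terms, p-values were adjusted by Benjamini-Hochberg over 24016 probe sets, and the threshold was 0.05. It had 3 residual and 2.81 prior degrees of freedom. Differences between cows were tested with the F-test of the cow terms. Each cow's 2 samples are named as such in the labels, so cow was a block, and deviations from group means correlated at 0.319 to 0.597 within cows. The sign-flip test enumerated all 16 flips. On simulated data with 24016 probe sets, the full against empty model recovered 52% of 200 probe sets changed 1.5-fold and 97.5% of those changed 2-fold, with independent noise alike in all cows. For the differences between cows, a shift of 1 cow was recovered in 0% of 200 at 1.5-fold, 69% at 2-fold and 98% at 4-fold. The changed probe sets were drawn at random from all 24016. The member probe sets varied more than those (median range 1.16 against 0.48 log2), so these shares do not describe recovery among the members.

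Members and lists were chosen with earlier results of these data known. Named genes were all member probe sets, the 2 genes of smallest unadjusted p in each list and the 3 of most similar pattern for the 3 members of widest range. Further genes are marked as named after their values were seen or serve as tissue and cell type markers. JCHAIN and FOLR2 were also named after their values were seen. Tables used Python 3.11.15 with pandas 2.3.3. No genome was used and coordinates are left out.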

Additional observations from a re-analysis of the deposited data

How the results depend on the processing

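No alternative gave a passing probe set, on the array or among the members, between full and empty gland, whether with no replicate block (0 passing), a random cow effect, arrays centred on their medians, quantile normalization repeated, brighter probe sets only, an intensity trend with robust prior, platform controls included, thresholds of 0.10 or 0.01, each cow left out, or cows 2 and 4 left out. At an unadjusted p under 0.05 these limma fits called 220 to 2150 probe sets. The 105 probe sets that differed between cows became 208 after median centring, 248 with the trend and robust prior, 255 at 0.10, 30 at 0.01 and 1820 without cows 2 and 4, and ranged from 13 to 131 with 1 cow left out (13 without cow 4, 27 without cow 3, 29 without cow 1). Member probe sets differing between cows numbered 0, and 1 after median centring, among the brighter probe sets, with the trend and robust prior and at 0.10 (the dimmer LTF probe set each time), 5 without cows 2 and 4, and 0 with each cow left out. The sign turned for LTF without cow 2 (-0.11), without cow 3 (-0.00057; range over single cows left out -0.11 to 0.21) and without cows 2 and 4 (-0.21), for SPP1 without cow 2 (0.023; range -0.045 to 0.023) and without cows 2 and 4 (0.038), and for CLU without cows 2 and 4 (-0.15), and the cause was not tested. List medians that left their spread over cows were those of antimicrobial and acute phase proteins (-0.10) and of clusterin and lactoferrin receptors (-0.10) without cows 2 and 4, and of trefoil and mucin genes (-0.31) when all probe sets of a gene were averaged. Of 198 alternative values, 176 kept their direction and side of the threshold or, where untested, stayed within the spread over cows or within 1.5 times the count. Fits of 2 cows have 1 residual degree of freedom, and values near the top of the array range may understate changes of GLYCAM1, SPP1, the brighter LTF probe set and the brightest MUC15 probe set.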

Other observations

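Within each of the 12 member probe sets, no sample of the full group, of the empty group or of the 4 differences stood far enough from the other 3 to exceed the 95% critical value of Dixon's test, in 36 groups of 4 values. Chance alone exceeds it in about 1 in 20 such groups. The test looks for 1 value apart from 3, so it cannot flag 2 values apart from 2. The differences of CLU were split in that way, with 1.10 and 0.97 in cows 2 and 4 against -0.19 and -0.11 in cows 1 and 3.

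The dimmer LTF probe set had its highest cow in common with CLU and with some other defence genes. The other genes of this paragraph are named after their values were seen. CHI3L1, a chitinase-like secreted protein, averaged 9.08, 9.92, 7.94 and 12.05 in cows 1 to 4. CFB, complement factor B, averaged 7.65, 8.50, 7.26 and 9.68. Both were highest in cow 4, as LTF and CLU were. They ranked all 4 cows as CLU did, with cow 3 lowest, whereas LTF was lowest in cow 1. LAP, the lingual antimicrobial peptide, was highest in cow 2 instead, at 10.12, and lowest in cow 1, at 6.03, where LTF was lowest too. None of these 3 passed the limma F-test between cows (adjusted p = 0.255, 0.252 and 0.138).

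MUC15, a membrane mucin of milk fat globules that is also named after its values were seen, gave unlike differences in its 3 probe sets. The brightest differed by -0.08 ± 0.08 between full and empty gland, and the other 2 by -0.45 ± 0.31 and -0.48 ± 0.33, with -1.27 and -1.42 in cow 2, -1.07 in cow 4 for both, and 0.32 and 0.42 in cow 1.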
